A study of Mus musculus with 22 samples.

Results

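Leukemia cells in which Nfkbie had been edited (NFKBIE-ko) were compared between 2 places, the spleen of transplanted mice and culture in vitro. All libraries with these labels were used, 4 from the spleen and 3 from culture, which is 7 of the 22 RNA-seq libraries of the study. The cells belong to the murine line TCL1-355 TKO, which was derived from a leukemia of Eμ-TCL1 transgenic mice, a model of CLL, carries an autoreactive B-cell receptor and has biallelic lesions of tumor suppressor genes, among them CDKN2A and CDKN2B. Both groups therefore share the edited Nfkbie and these lesions. They differ in place, in the mice the cells came from, in the period of culture, in how cells were collected and in host RNA. These cannot be told apart. For flow cytometry the paper describes spleens ground through strainers with red cells lysed, and peritoneal cells obtained by lavage. The part of such handling in the values below was not tested. For the spleen libraries, cells passaged in C57BL/6 mice were given intraperitoneally to further mice of this strain, whose spleens were later harvested; which recipient gave which library is not stated. They were not purified, so that RNA of the host's own cells is in these libraries. The cultured cells had been isolated from spleens of different mice and were kept apart in culture before RNA isolation, without any agent that the labels name. The labels give blood as the tissue of all these samples, and for NFKBIE-ko samples their free-text description begins by naming NFKBIE-wt cells. Place and genotype were taken from title and source.

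The editing guide is shown because every cell compared here had been exposed to it. It matched chromosome 17 of GRCm39 on the forward strand, at chr17:45869436-45869458, within coding sequence of exon 2 of Nfkbie (gene at 45866585 to 45874661). In the site below the capitals are the 3 bases of the PAM.
Nfkbie target site: agtgattcacgaagccccgtCGG

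CLL cells divide mainly in lymphoid tissue, where T cells, macrophages and stromal cells provide signals through the B-cell receptor, Toll-like receptors, chemokine receptors and receptors of the TNF family. Such signals reach the nucleus through NF-κB, which IκB proteins such as IκBε, the product of Nfkbie, retain in the cytoplasm, and through the kinases that switch on immediate-early genes within minutes. Cholesterol synthesis responds to supply, since SREBP2 raises the enzymes of the pathway when sterols are scarce. MHC class II genes are held on in B cells by the coactivator CIITA.

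Levels are given as TMM-scaled CPM, the count of a gene relative to the library's total, with counts summed per gene, and can be compared between libraries but not between genes. A gene was called higher or lower when the quasi-likelihood test of edgeR gave a Benjamini-Hochberg adjusted p below 0.05 and the log2 fold change lay above 1 or below -1. All adjusted p-values below come from this test unless another is named. They set the difference between the groups against the spread between these libraries. The paper states that knockout and wild-type cells were propagated apart in mice before transplantation. Variation between such passages may not be covered by these p-values. The total estimated count lay between 23887541 and 26412338 in the 7 libraries.

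Nfkbie, the targeted gene, read 120, 54.2, 109 and 112 CPM in the 4 spleens and 56.0, 59.9 and 48.2 CPM in the 3 cultures. In 3 spleens it was above every culture, and in NFKBIE-ko spleen replicate 2 it lay among the cultures. Its log2 fold change was 0.86 with a standard error of 0.252 (adjusted p of 0.0267) and stayed under the fold threshold, and without NFKBIE-ko spleen replicate 2 it was 1.05 (adjusted p of 2.23e-05), past it. In the 6 fits that left out another library the adjusted p was 0.0614 to 0.0988. Since both groups carry the edit, this gene cannot check the labels here.

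Host content was read from 115 marker genes of host cells that had no more than 3 counts in any NFKBIE-ko culture. Their summed level was 647, 282, 646 and 346 CPM in the spleens and 1.24, 0.616 and 1.07 CPM in the cultures, so that all 4 spleens held host RNA. The low sums of the cultures follow from how the markers were chosen and do not check the labels of the cultures. NFKBIE-ko spleen replicate 2 stood apart from the other spleens. It had the lowest summed level of these markers, though not of every kind of host cell. The T-cell genes among them summed to 23.3, 33.9, 44.9 and 24.7 CPM in spleen replicates 1 to 4. The chi-square per degree of freedom of its counts against another spleen was 69.8, 135 or 110. Pairs of the other 3 spleens had 18 to 36.8. Pairs of cultures had 6.85 to 13.5. Among the NFKBIE-wt libraries, which enter only 1 comparison near the end, 2 went against their labels. The library labelled NFKBIE-wt spleen replicate 4 had a host sum of 1.66 CPM, where the other 3 with this label had 310 to 846 CPM, and in the one labelled as replicate 3 of NFKBIE-wt in vitro the sum was 659 CPM, where the other 2 had 0.307 and 42.1 CPM.

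Of 12355 genes tested, 1086 (8.79%) were higher in the spleen and 778 (6.3%) were lower, and the median log2 fold change of all genes was 0.05. Spleens and cultures did not overlap for 48.7% of the genes tested. Of the genes higher, 418 had at most 3 counts in every culture library, whereas 173 were expressed at 5 CPM or more in every culture. The genes higher had a median log2 fold change of 3.17 and the genes lower one of -1.53, of which 509 had a mean of at least 5 CPM in culture. The summed level of the host markers differed between the groups as given above beside every rise reported below, and its part in those rises was not tested. In a bulk sample, fewer cells of a type and less RNA per cell cannot be told apart.

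**Figure D1:**
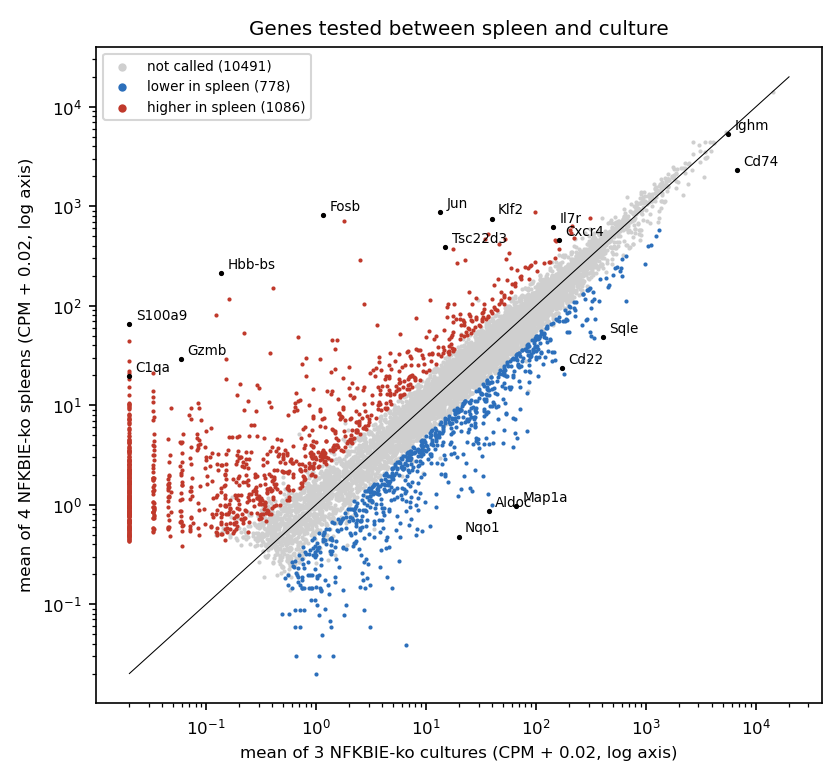
Mean level in the 4 NFKBIE-ko spleens against that in the 3 NFKBIE-ko cultures for each gene tested, in CPM on log axes after 0.02 was added to draw zeros. Red points are the 1086 genes higher in the spleen, blue points the 778 lower and grey points the others; genes at the left edge had no count in culture.

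A filter on low counts left most members of the host cell lists to be tested, among them 23 of 25 T-cell, 15 of 18 cytotoxic, 19 of 20 macrophage, 18 of 18 monocyte, 14 of 18 neutrophil and 23 of 24 erythroid genes, but only 6 of 25 stromal and 5 of 18 endothelial genes. A gene absent from culture passed that filter through the spleens alone and so had to differ, and the counts of these lists are descriptions.

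At most 3 counts in every culture were held by 13 of 18 listed genes of CD8+ cytotoxic and NK cells and by 8 of 25 T-cell genes. These summed to 48.7 to 120 CPM and to 23.3 to 44.9 CPM in the spleens. The other T-cell genes were read in culture, and the whole T-cell list summed to 915 to 978 CPM there. Of 15 tested genes of CD8+ cytotoxic and NK cells, 12 were higher and 2 lower (median log2 fold change 7.49, or 4.83 with genes at 0 in culture set to their lower bound), and of 23 tested T-cell genes 16 were higher and 0 lower (median 2.77), against 8.79% higher among all genes. Gzmb, granzyme B of cytotoxic granules, read 22.3, 18.1, 53.0 and 23.1 CPM in the spleens and 0.0751, 0 and 0.0413 CPM in the cultures. The cultures held 3 counts in all, and the ratio of spleen to culture was 742 with a 95% exact interval of 254 to 3600 (adjusted p of 5.73e-05). Replicate 3 was above the other spleens for Gzmb, and likewise for Gzma, another granzyme, at 3.91, 3.70, 16.3 and 4.23 CPM against 0 in each culture. Such intervals use counts pooled over the libraries of a group. They and the bounds leave out the variation between spleens and between cultures. Even counting error may be understated, because reads copied from 1 molecule by PCR count separately.

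Trbc2, a constant region of the T-cell receptor β chain, read 5.82, 9.53, 13.9 and 7.38 CPM in the spleens and was at 0 in the cultures, at least 74.0-fold higher against 3 counts in 1 culture library (adjusted p of 0.000160). Ikzf2, the factor Helios of regulatory T cells, was at least 11.0-fold higher by the same measure (1.15, 1.10, 1.67 and 1.52 CPM against 0), and 4 of 7 tested genes of regulatory and helper T cells were higher and 0 lower. Most genes of the T-cell list and some of the cytotoxic list were read in pure culture too, and thus mark no host cell here. Il7r, the receptor of the survival cytokine IL-7, read 139 to 150 CPM in the cultures and 535 to 699 CPM in the spleens (log2 fold change 2.11, adjusted p of 1.05e-05). Tbx21, the factor T-bet, was lower in the spleen, at 6.66 to 10.0 CPM against 26.6 to 39.2 CPM (log2 fold change -1.96, adjusted p of 0.000128). Its call was lost in a fit of all 22 libraries (adjusted p of 0.0734).

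Of 14 tested neutrophil genes 14 were higher (median log2 fold change 9.58, or 6.20 with bounds). Of these, 12 had at most 3 counts in every culture. The fits that left out 1 library called 11 to 13. S100a9, a subunit of calprotectin, read 85.2, 44.7, 101 and 30.7 CPM in the spleens and 0 in each culture, at least 529-fold higher (adjusted p of 0.000280), and its partner S100a8 was at least 353-fold higher (54.8, 20.5, 74.1 and 25.7 CPM). Ngp, a granule protein of immature neutrophils, was at least 225-fold higher (16.5 to 36.8 CPM), and Lcn2, the iron-binding lipocalin of secondary granules, at least 124-fold (9.36 to 21.1 CPM). Spleens 1 and 3 were above spleens 2 and 4 for S100a9, S100a8 and Lcn2.

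Macrophage and monocyte genes were split between those of the host and those the leukemia line reads itself. Of 19 tested genes of red pulp macrophages, which clear aged red cells, 12 were higher and 2 lower (median log2 fold change 7.75, or 3.99 with bounds), and of 18 monocyte genes 12 were higher and 2 lower (median 6.22, or 4.66 with bounds). C1qa, a chain of the complement component C1q, read 38.4, 4.45, 19.1 and 15.9 CPM in the spleens and 0 in the cultures, at least 157-fold higher (adjusted p of 0.00207), and C1qc was at least 148-fold higher (3.70 to 36.0 CPM). C1qb had 1 count in all cultures together and 4.92 to 39.3 CPM in the spleens. All 3 C1q genes were lowest in replicate 2 and highest in replicate 1, as were Selenop, a selenium carrier (5.67 to 28.4 CPM in the spleens), and Slc40a1, the iron exporter ferroportin (2.01 to 14.1 CPM, at least 57.9-fold higher than in culture). Lyz2, the lysozyme of myeloid cells, read 141, 41.2, 90.4 and 52.1 CPM in the spleens and 0.0413 to 0.188 CPM in the cultures (log2 fold change 9.55, adjusted p of 5.52e-05), and Chil3, a chitinase-like protein of myeloid cells, was at least 177-fold higher (10.0 to 30.9 CPM). The members that fell were Adgre1 (F4/80) and Hmox1 (heme oxygenase 1) of the macrophage list, and Ly6c2 and Ms4a4c of the monocyte list. Adgre1 read 3.19 to 12 CPM in the spleens and 20.6 to 28.7 CPM in the cultures (log2 fold change -1.49, adjusted p of 0.0121), and the call was lost when NFKBIE-ko in vitro replicate 1 was left out. Hmox1 (log2 fold change -1.09, adjusted p of 0.0275) lost its call in 6 of the 7 fits that left out 1 library, all but the one without NFKBIE-ko spleen replicate 1, and Ly6c2 lost it without NFKBIE-ko in vitro replicate 2. Apoe, which macrophages secrete, did not pass the test (17.8 to 72.7 CPM against 61.4 to 71.7 CPM, adjusted p of 0.173), although it was called lower without NFKBIE-ko spleen replicate 1 (log2 fold change -1.20).

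Erythroid transcripts varied between the spleens. Of 23 tested genes 19 were higher and 0 lower (median log2 fold change 6.42, or 3.77 with bounds). Hbb-bs, a β-globin gene, read 245, 14.1, 371 and 223 CPM in the spleens and 0, 0.270 and 0.0826 CPM in the cultures (log2 fold change 10.77, adjusted p of 0.000900), and Hba-a1, an α-globin gene, read 191, 21.2, 229 and 163 CPM against 0.330 to 0.424 CPM (log2 fold change 8.58, adjusted p of 0.000383). How Salmon divided reads between the near-identical globin copies is uncertain. Alas2, the heme synthesis enzyme of red cell precursors, read 15.5, 1.30, 12.7 and 11.8 CPM and was at 0 in the cultures, at least 83.5-fold higher (adjusted p of 0.00350). Replicate 2 was thus the lowest spleen for all 3 genes. Without it, 19 members were still called, and the fits that left out 1 library called 13 to 19.

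Other host cells left few transcripts. Of 13 tested dendritic cell genes 6 were higher and 2 lower (median log2 fold change 0.74), and Clec9a, a receptor of cross-presenting dendritic cells, read 0.591 to 0.919 CPM in the spleens and 0 in the cultures, at least 5.95-fold higher. Of 6 megakaryocyte genes 2 were higher and 1 lower, of 4 mast cell and basophil genes 2 and 1, of 5 endothelial genes 1 and 0, and of 6 stromal genes 3 and 1. Stab2, the hyaluronan receptor of sinus endothelium, read 3.64, 0.394, 0.992 and 0.837 CPM in the spleens and 0 in culture. Fn1, fibronectin, read 11.2, 6.03, 5.83 and 4.99 CPM in the spleens and had 1 count in all cultures. Il4, a cytokine of basophils and helper T cells, was lower in the spleen (0.0766 to 0.152 CPM against 1.23 to 1.36 CPM, adjusted p of 0.000203). Several of these small counts rest on single libraries, although those of the mast cell list did not change when 1 library was left out. The 3 stromal rises became 1 without any library other than NFKBIE-ko spleen replicate 2, the 1 stromal fall became 0 without any of the cultures, and the 2 dendritic cell falls became 0 or 1 without any library other than NFKBIE-ko spleen replicate 2. Of the 2 megakaryocyte rises 1 was left without spleen replicate 1, 3 or 4, and its 1 fall became 2 without spleen replicate 2. The endothelial rise became 0 without spleen replicate 1 or 4, 2 without culture replicate 1 or 2, and 3 without culture replicate 3.

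**Figure D2:**
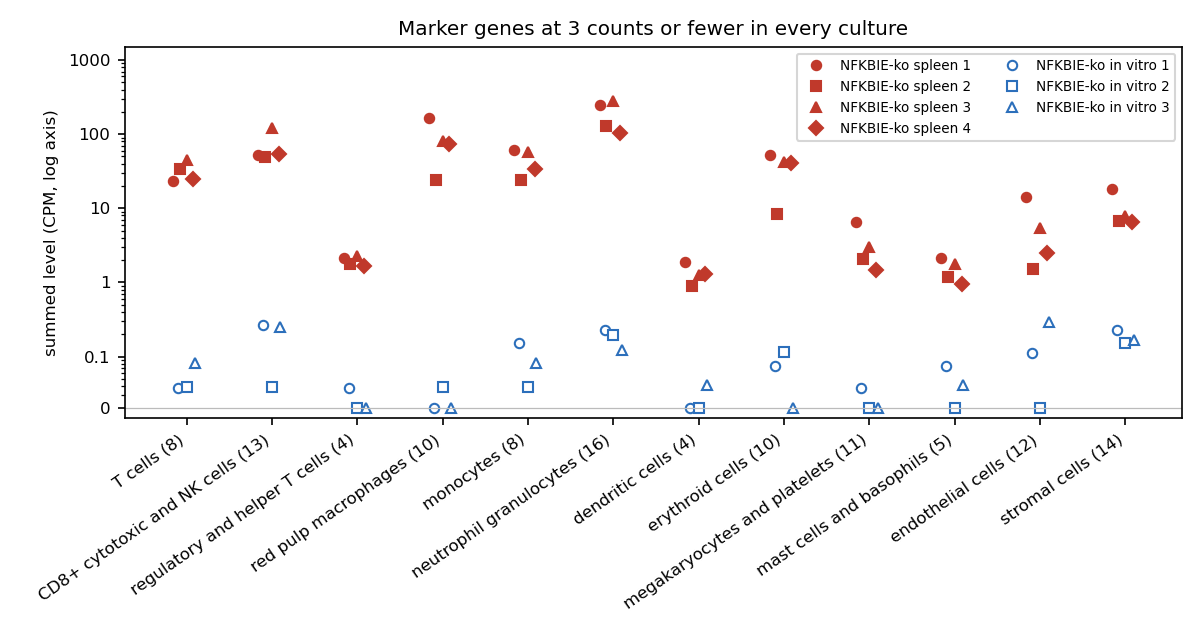
Summed level, in CPM on a log axis with 0 drawn at the bottom line, of the members of each host cell list that had at most 3 counts in every NFKBIE-ko culture, with their number in brackets. Filled red symbols are the 4 spleens and open blue symbols the 3 cultures, with 1 symbol shape a replicate number; every spleen lies above every culture in each list, and replicate 2 is the lowest spleen for red pulp macrophages (24.1 CPM) and erythroid cells (8.47 CPM).

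Among genes that the cultured leukemia cells express, the list with the largest share of calls was cholesterol synthesis. Of 24 tested genes (25 in the list) 21 were lower in the spleen and 0 higher, with a median log2 fold change of -1.86, where 6.3% of all genes were lower. Sqle, squalene epoxidase, read 415, 418 and 374 CPM in the cultures and 53.0, 37.0, 53.3 and 48.5 CPM in the spleens (log2 fold change -3.06, adjusted p of 4.68e-06). Each spleen was far below each culture. Srebf2, which encodes SREBP2, fell from 566 to 651 CPM to 182 to 215 CPM (log2 fold change -1.62, adjusted p of 1.26e-05). The 3 members not called were Ebp, Pmvk and Mvk. The count was 21 in every fit that left out 1 library.

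The 250 bases before the canonical start of each protein-coding gene were searched for a 9-letter sterol response element, TCACNCCAC, on both strands. It was found for 1 of the 24 genes of the list (Hmgcs1) and for 1.12% of 21751 genes. The stretch of Hmgcs1, chr13:120151732-120151780 of GRCm39 on the forward strand, is shown with the match in capitals because this gene, HMG-CoA synthase, was among those that fell (282 to 339 CPM in culture, 40.8 to 55.8 CPM in the spleen, log2 fold change -2.67, adjusted p of 7.91e-06). A match is no proof of a site, and genes without one were not examined further.
Hmgcs1: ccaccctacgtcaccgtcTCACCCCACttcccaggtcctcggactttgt

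Fatty acid synthesis moved less. Of 13 tested genes 2 (15.4%) were lower and 0 higher, against 6.3% and 8.79% of all genes (median log2 fold change -0.46). Scd2, a stearoyl-CoA desaturase, fell from 1085 to 1157 CPM to 367 to 426 CPM (log2 fold change -1.47, adjusted p of 1.05e-05), and Acsl3, an acyl-CoA synthetase, from 51.1 to 53.3 CPM to 9.16 to 11.7 CPM (log2 fold change -2.30, adjusted p of 4.68e-06). Acly, ATP citrate lyase, read 478 to 572 CPM in the spleens and 540 to 570 CPM in the cultures (adjusted p of 0.450). Abcg1, which exports cholesterol from cells, went the other way, with 62.8, 102.4, 55.3 and 81.2 CPM in the spleens and 8.67, 5.97 and 9.54 CPM in the cultures (log2 fold change 3.23, adjusted p of 7.02e-05).

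MHC class II presentation was lower in the spleen in 11 of 13 tested genes (84.6%, against 6.3% of all genes) and higher in 0 (median log2 fold change -1.39). Cd74, the invariant chain, read 6933, 6774 and 6527 CPM in the cultures and 2347, 2228, 2196 and 2404 CPM in the spleens (log2 fold change -1.55, standard error 0.0802, adjusted p of 8.14e-06). H2-Aa, an α chain, read 1344, 1352 and 1276 CPM in the cultures and 595, 361, 629 and 712 CPM in the spleens (log2 fold change -1.20, adjusted p of 0.00204), and H2-Ab1, its β chain, fell from 1189 to 1264 CPM to 335 to 577 CPM (log2 fold change -1.30, adjusted p of 0.000722). H2-Oa, which restrains peptide loading, fell most, from 33.3 to 37.4 CPM to 7.12 to 9.20 CPM (log2 fold change -2.10, adjusted p of 8.14e-06). Spleens and cultures did not overlap for any of these 4 genes, as for 48.7% of all genes tested, and replicate 2 was the lowest spleen for H2-Aa and H2-Ab1. Ciita, named here after its values were seen, fell from 182 to 197 CPM to 41.0 to 68.7 CPM (log2 fold change -1.81, adjusted p of 8.44e-05). By contrast 0 of 17 tested MHC class I genes were called in either direction (median 0.23), with 14 above 0. B2m read 1946 to 2515 CPM in the spleens and 2225 to 2317 CPM in the cultures (adjusted p of 0.698).

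The Y box, a promoter element of class II genes, was searched as CTGATTGG on both strands in the same windows. It was found for 4 of the 13 class II genes (H2-Aa, H2-Ab1, H2-Eb1 and H2-Eb2), all 4 lower in the spleen, and for 4.55% of 21751 genes. Its last 5 letters are the complement of a CCAAT box. The stretches of 3 class II genes are shown 5′ to 3′ on the strand of the gene, with the match in capitals, since these genes fell together. They lie on GRCm39 at chr17:34482131-34482182 (H2-Ab1, forward strand), chr17:34506819-34506870 (H2-Aa, reverse strand) and chr17:34524757-34524808 (H2-Eb1, forward strand).
H2-Ab1: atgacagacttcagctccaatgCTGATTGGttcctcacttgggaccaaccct
H2-Aa: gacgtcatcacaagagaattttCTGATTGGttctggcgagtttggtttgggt
H2-Eb1: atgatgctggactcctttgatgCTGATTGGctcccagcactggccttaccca

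Immediate-early genes rose in the spleen. Of 29 tested genes 20 (69%) were higher and 2 (6.9%) lower, against 8.79% and 6.3% of all genes, with a median log2 fold change of 1.64. Jun, a subunit of AP-1, read 919, 1336, 665 and 592 CPM in the spleens and 12.5, 12.6 and 15.1 CPM in the cultures (log2 fold change 6.04, standard error 0.343, adjusted p of 1.11e-05). Fosb, its partner, read 659, 1690, 442 and 496 CPM in the spleens and 1.09, 1.19 and 1.12 CPM in the cultures (log2 fold change 9.50, adjusted p of 4.30e-05). Replicate 2 was the highest of the 4 for Jun and Fosb. Fos, named after its values were seen, read 476 to 905 CPM against 1.43 to 2.07 CPM (log2 fold change 8.63, adjusted p of 3.40e-06). Klf4, a Krüppel-like factor, read 17, 7.84, 6.94 and 5.18 CPM in the spleens and 0 in the cultures, at least 74.7-fold higher. Jund, which is less inducible, rose from 304 to 323 CPM to 739 to 778 CPM (log2 fold change 1.29, adjusted p of 1.05e-05).

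Zfp36, which destabilizes cytokine mRNA, read 255, 450, 191 and 173 CPM in the spleens and 16.6 to 20.6 CPM in the cultures (log2 fold change 3.82, adjusted p of 0.000139), and Dusp10, a MAP kinase phosphatase, read 74.2, 192, 50.6 and 74.1 CPM against 14.4 to 17 CPM (log2 fold change 2.66, adjusted p of 0.00222). Cd69, an activation marker that retains lymphocytes in tissue, read 327, 270, 270 and 278 CPM in the spleens and 22.1, 20.6 and 24.3 CPM in the cultures (log2 fold change 3.68, adjusted p of 2.60e-06). Egr3, a target of antigen receptor signaling, was lower in the spleen, at 19.7 to 21.9 CPM against 48.4 to 50.6 CPM (log2 fold change -1.24, adjusted p of 1.71e-05), and of the 2 falls in the list 1 was left without NFKBIE-ko spleen replicate 2. A CRE, TGACGTCA on both strands, was found before the start of 5 of the 29 genes (Btg2, Dusp1, Ier2, Jund and Maff) and of 1.7% of all genes. Of these 5, 3 were higher and 0 lower. A CArG box was found before 3 of 29 (Dusp5, Egr2 and Egr3) and 1.4% of all genes. Of these 3, 0 were higher and 2 lower.

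**Figure D3:**
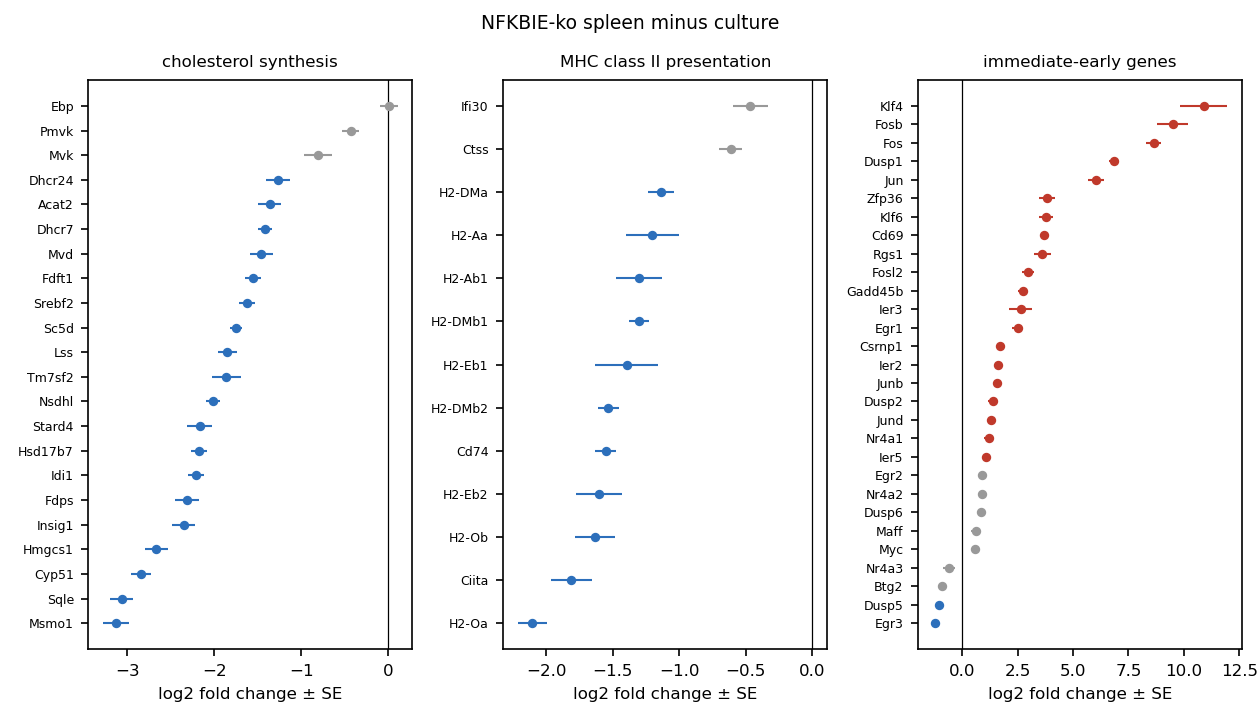
Log2 fold change between NFKBIE-ko spleen and culture, with its standard error, for tested members of 3 gene lists, without 2 of the 21 cholesterol synthesis genes called lower, which are not reported here. Red points were called higher, blue points lower and grey points not called: 19 of 22 cholesterol synthesis genes drawn and 11 of 13 MHC class II genes lie to the left as blue points, and 20 of 29 immediate-early genes to the right as red points, where the point of Klf4, without a count in culture, depends on the fit's prior count.

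Among all genes with at least 5 CPM in every culture, those with the largest rises were Jun, Tsc22d3, Ppp1r15a, Klf2 and Serpinb9d. Tsc22d3, which encodes GILZ and is induced by glucocorticoids, read 346, 551, 312 and 334 CPM in the spleens and 14.5, 15.9 and 14.5 CPM in the cultures (log2 fold change 4.69, adjusted p of 7.91e-06). Klf2, which keeps lymphocytes quiescent and supports their recirculation, read 826, 877, 676 and 630 CPM in the spleens and 42.2, 40.8 and 35.1 CPM in the cultures (log2 fold change 4.26, adjusted p of 3.40e-06). Serpinb9d, of a family of protease inhibitors with many copies, read 425 to 664 CPM against 16.0 to 65.5 CPM, and its reads may be shared with its copies. The remaining 10 genes that rose most were Zfp36, Klf6, Cd69, Vcam1, Abcg1, Rhob, Niban3, Zfp36l2, Gadd45b and Dusp10, with log2 fold changes from 2.66 (Dusp10) to 3.82 (Zfp36). Vcam1, an adhesion molecule that red pulp macrophages and stromal cells carry, read 192, 47.7, 109 and 106 CPM in the spleens and 9.65 to 11.8 CPM in the cultures, and followed the order of the C1q genes, with replicate 1 highest and replicate 2 lowest.

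The integrated stress response slows translation under stress. Of its 22 tested genes 7 (31.8%) were higher and 2 (9.09%) lower, against 8.79% and 6.3% of all genes (median log2 fold change 0.14). Ppp1r15a (GADD34), which ends the response by dephosphorylation of eIF2α, read 424, 477, 285 and 297 CPM in the spleens and 16.6 to 19.1 CPM in the cultures (log2 fold change 4.41, adjusted p of 8.14e-06). Atf4, its central factor, rose from 208 to 211 CPM to 511 to 575 CPM (log2 fold change 1.38, adjusted p of 1.11e-05), and Atf3 read 38.0 to 66.9 CPM in the spleens and 0.601, 0 and 0 CPM in the cultures (log2 fold change 7.97, adjusted p of 7.26e-05). Trib3, a late target of the response, was lower (log2 fold change -1.63, adjusted p of 0.0122; the call was lost without NFKBIE-ko in vitro replicate 2). Of 24 tested genes of the unfolded protein and heat shock response 4 (16.7%) were higher and 0 lower, against the same shares of all genes. Hspa1a, an inducible HSP70, read 32.8, 1.73, 3.81 and 1.94 CPM in the spleens and 0 in the cultures, with replicate 1 far above the others, and its call (adjusted p of 0.02) was lost without NFKBIE-ko in vitro replicate 1, NFKBIE-ko in vitro replicate 2 or NFKBIE-ko spleen replicate 2. The 4 rises of the list became 2 without NFKBIE-ko in vitro replicate 1.

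Receptors that guide B cells through lymphoid tissue were in part higher. Of 28 tested genes of homing and adhesion 6 (21.4%) were higher, against 8.79% of all genes, and 1 (3.57%) lower, against 6.3% (median log2 fold change 0.20). Cxcr4, the receptor of CXCL12, rose from 155 to 172 CPM to 366 to 495 CPM (log2 fold change 1.48, adjusted p of 5.71e-05). Itgb1, the β1 integrin, read 261 to 362 CPM in the spleens and 287 to 337 CPM in the cultures (adjusted p of 0.684). Rgs13, a regulator of G protein signaling, was the member that fell (log2 fold change -1.29, adjusted p of 0.0102). Its call was lost in the fit of all 22 libraries (adjusted p of 0.146) and for its most abundant transcript (adjusted p of 0.507). Without NFKBIE-ko spleen replicate 2 there were 3 falls.

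Of 30 tested NF-κB targets 8 (26.7%) were higher, against 8.79% of all genes, and 1 (3.33%) was lower, against 6.3%, with a median log2 fold change of 0.11. Nfkbia, the feedback inhibitor IκBα, rose from 216 to 222 CPM to 464 to 512 CPM (log2 fold change 1.14, adjusted p of 1.96e-05), and Pim1, a kinase of B-cell survival, from 145 to 154 CPM to 414 to 497 CPM (log2 fold change 1.61, adjusted p of 1.05e-05). Nfkb2, which encodes p100, read 367, 269, 380 and 368 CPM in the spleens and 396 to 407 CPM in the cultures (log2 fold change -0.21, adjusted p of 0.195). Lta, lymphotoxin α, was lower (1.22 to 2.72 CPM against 4.63 to 5.08 CPM, log2 fold change -1.25, adjusted p of 0.00682).

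In the BAFF, APRIL and TNF family 5 of 18 tested genes (27.8%) were higher and 6 (33.3%) lower, against 8.79% and 6.3% of all genes. Tnfrsf13c, the BAFF receptor, fell from 455 to 594 CPM to 222 to 253 CPM (log2 fold change -1.11, adjusted p of 0.000125), and Ltb, lymphotoxin β, from 427 to 444 CPM to 122 to 250 CPM (log2 fold change -1.19, adjusted p of 0.00224). Cd70, the ligand of CD27, fell most, from 4.08 to 4.58 CPM to 0 to 0.674 CPM (log2 fold change -3.25, adjusted p of 0.00450). Its most abundant transcript alone was not called (adjusted p of 0.0722). Ltbr, the lymphotoxin receptor of stromal and myeloid cells, was at 0 in culture and read 0.985 to 1.76 CPM in the spleens. Among Toll-like receptor genes 4 of 20 tested (20%) were higher and 2 (10%) lower, against 8.79% and 6.3% of all genes. When NFKBIE-ko spleen replicate 2 was left out, 4 were lower. Cd180, a B-cell homolog of TLR4, fell from 310 to 319 CPM to 83.1 to 107 CPM (log2 fold change -1.73, adjusted p of 1.10e-05), and Tlr13, which myeloid cells carry, rose from 0.0413 to 0.0770 CPM to 2.59 to 5.48 CPM (adjusted p of 7.73e-05). Of 26 cytokine receptors and STAT regulators 2 (7.69%) were higher and 5 (19.2%) lower. Among the latter were Il9r (439 to 480 CPM in culture, 157 to 167 CPM in the spleen, log2 fold change -1.51) and Il5ra (123 to 132 CPM in culture, 33.3 to 48.5 CPM in the spleen, log2 fold change -1.54). The call of Il9r was lost in the fit of all 22 libraries (adjusted p of 0.097).

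Of 25 tested genes of B-lineage identity 0 were higher and 4 (16%) lower, against 8.79% and 6.3% of all genes (median log2 fold change -0.25). Cd22, an inhibitory receptor of the B-cell receptor complex, fell most, from 170, 179 and 169 CPM in the cultures to 20.5, 35.3, 18.9 and 19.5 CPM in the spleens (log2 fold change -2.87, standard error 0.216, adjusted p of 4.89e-05). Its most abundant transcript alone was not called (log2 fold change -3.50, adjusted p of 0.0855). Cd79a, a signaling chain of the receptor, read 486, 795, 526 and 521 CPM in the spleens and 850 to 965 CPM in the cultures (log2 fold change -0.63, adjusted p of 0.0185, under the fold threshold), and Spib, a B-cell transcription factor, changed by -0.25 on the log2 scale. Of 14 B-1 cell markers 3 (21.4%) were higher and 4 (28.6%) lower, against 8.79% and 6.3% of all genes. Of 13 follicular and marginal zone genes 3 (23.1%) were higher and 2 (15.4%) lower, and of 13 plasma cell genes 0 and 2 (15.4%). Bhlhe41, a factor of B-1 cells, fell from 302 to 344 CPM to 118 to 156 CPM (log2 fold change -1.26, adjusted p of 9.82e-05), and Ccr1, a chemokine receptor, from 27.7 to 38.7 CPM to 2.09 to 5.44 CPM (log2 fold change -3.04, adjusted p of 0.000160). Jchain, which links IgM and IgA, fell from 4.85 to 9.62 CPM to 1.50 to 2.76 CPM (log2 fold change -1.71, adjusted p of 0.00309). Without NFKBIE-ko spleen replicate 3 or NFKBIE-ko in vitro replicate 3, 1 plasma cell gene was called higher. The B-1 count of 4 became 2 without NFKBIE-ko spleen replicate 4.

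Interferon-stimulated genes were higher in 13 of 34 tested (38.2%) and lower in 0, against 8.79% and 6.3% of all genes (median log2 fold change 0.77). Oas1a, which senses double-stranded RNA, read 1.30 to 2.30 CPM in the spleens and 0 in the cultures, at least 14.7-fold higher. Gbp3, a guanylate-binding protein, read 97.5, 92.2, 99.8 and 87.9 CPM in the spleens and 56.7, 53.4 and 61.0 CPM in the cultures, and its log2 fold change of 0.73 passed the test (adjusted p of 0.000351) but not the fold threshold. An interferon-stimulated response element, GAAANNGAA on both strands, was found before 17 of the 34 genes, 6 of them higher, and before 7.56% of all genes. Without NFKBIE-ko in vitro replicate 1, NFKBIE-ko in vitro replicate 3 or NFKBIE-ko spleen replicate 3, 1 member of the list was called lower.

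Some hypoxia and glycolysis genes fell steeply. Of 18 tested hypoxia genes 4 (22.2%) were lower and 2 (11.1%) higher (median log2 fold change -0.53). Of 22 glycolysis genes 4 (18.2%) were lower and 0 higher (median -0.39). Among all genes 6.3% were lower and 8.79% higher. Egln3, the oxygen sensor PHD3, read 32.8, 42.4 and 22.5 CPM in the cultures and 3.03, 1.02, 2.10 and 1.56 CPM in the spleens (log2 fold change -4.07, adjusted p of 7.89e-05). Aldoc, aldolase C, read 34.6, 51.4 and 25.8 CPM in the cultures and 1.23, 0.748, 0.635 and 0.761 CPM in the spleens (log2 fold change -5.45, adjusted p of 1.05e-05). Culture 3 was the lowest culture for both genes, and the 4 spleens were well below it. Of the glycolysis genes not called, Gapdh read 2428 to 3292 CPM in the spleens and 3149 to 3744 CPM in the cultures (adjusted p of 0.286). Pkm, pyruvate kinase, read 1427, 1002, 1358 and 1378 CPM in the spleens and 2162, 2473 and 1846 CPM in the cultures, without overlap (log2 fold change -0.74, adjusted p of 0.00499, under the fold threshold). The hypoxia count of 4 became 2 without NFKBIE-ko in vitro replicate 1, NFKBIE-ko in vitro replicate 2, NFKBIE-ko spleen replicate 3 or NFKBIE-ko spleen replicate 4, and the glycolysis count of 4 became 7 without NFKBIE-ko in vitro replicate 3.

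Growth programs passed the fold threshold in almost no gene. Of 36 tested genes of the cell cycle and DNA replication 0 were higher and 1 (2.78%) lower. Of 30 Myc targets and 38 nuclear genes of oxidative phosphorylation 0 were called. Mki67, the proliferation marker Ki-67, read 564, 845, 331 and 381 CPM in the spleens and 804, 822 and 989 CPM in the cultures (log2 fold change -0.71, adjusted p of 0.0874), and without NFKBIE-ko spleen replicate 2 it was called lower (log2 fold change -1.04), which made 2 calls in the list. Cenpf, a kinetochore protein, was the 1 gene called with all libraries (33.2 to 70.7 CPM against 115 to 128 CPM, log2 fold change -1.36, adjusted p of 0.00295). Pcna, the replication clamp, read 476 to 606 CPM in the spleens and 425 to 439 CPM in the cultures (log2 fold change 0.32, adjusted p of 0.0231). In the BCL2 family 3 of 16 tested genes (18.8%) were higher and 1 (6.25%) lower, against 8.79% and 6.3% of all genes. Pmaip1 (NOXA), which promotes apoptosis, read 399, 453, 236 and 274 CPM in the spleens and 62.6, 59.8 and 47.5 CPM in the cultures (log2 fold change 2.59, adjusted p of 0.000151), and Mcl1, which it antagonizes, read 933 to 1186 CPM and 984 to 1067 CPM (adjusted p of 0.858).

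The remaining lists moved in few members. Of 22 iron and heme genes 4 (18.2%) were higher and 1 (4.55%) lower, and of 23 lysosome genes 2 and 2 (8.7% each). Of 16 quiescence-linked genes 4 (25%) were higher and 3 (18.8%) lower, and of 9 metallothionein and zinc transport genes 0 and 1 (11.1%). Among all genes 8.79% were higher and 6.3% lower, so the lysosome shares lay near those of all genes. Ftl1, ferritin light chain, read 1551 to 2147 CPM in the spleens and 3051 to 3643 CPM in the cultures (log2 fold change -0.76, adjusted p of 0.00244), and Mt2, a metallothionein, fell from 31.6 to 40.7 CPM to 2.42 to 5.02 CPM (log2 fold change -3.21, adjusted p of 3.03e-05). Lipa, the lysosomal acid lipase that frees cholesterol in lysosomes, fell from 121 to 141 CPM to 39.5 to 55.5 CPM (log2 fold change -1.53, adjusted p of 7.27e-05), whereas Ctsl, a cathepsin, rose (6.46 to 7.60 CPM in culture, 12.9 to 29.2 CPM in the spleen, adjusted p of 0.00306). The iron and heme gene that fell was Hmox1, whose call, among the fits that left out 1 library, was kept only in the one without NFKBIE-ko spleen replicate 1. Of the lysosome falls 1 was left without NFKBIE-ko spleen replicate 4, and a second metallothionein list member was called without NFKBIE-ko in vitro replicate 3.

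**Figure D4:**
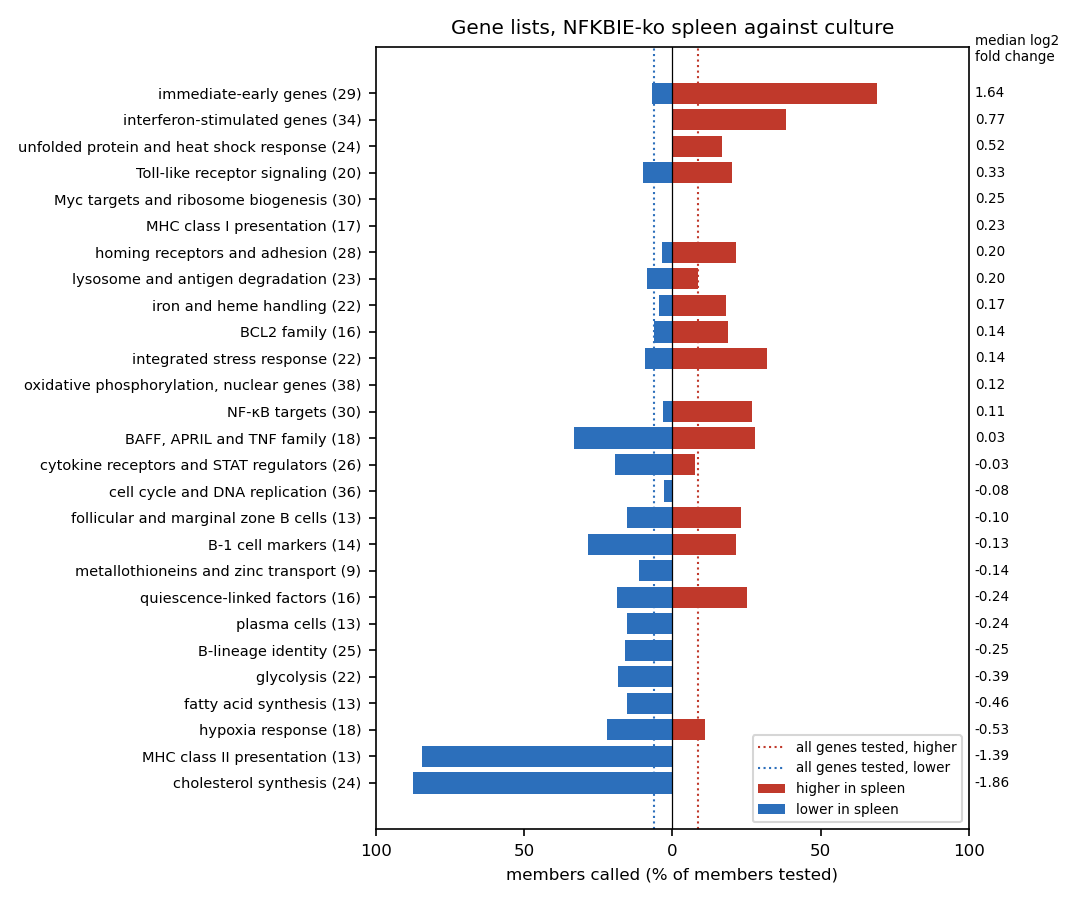
Share of the tested members of each gene list that was called higher (red, to the right) or lower (blue, to the left) in NFKBIE-ko spleen than in culture, with the number tested in brackets and the median log2 fold change at the right edge. Dotted lines mark the 8.79% and 6.3% of all genes tested; cholesterol synthesis and MHC class II stand at the blue end and immediate-early genes at the red end.

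The 15 genes with the largest falls among those with a mean of at least 5 CPM in culture came mostly from outside the lists. They were Cacnb4, Map1a, Aldoc, Nqo1, Adgrl2, Sh3bgr, Lama5, Akap5, Scd4, Ffar1, Dapk2, Egln3, Pgbd5, Chit1 and Cd200r1, with log2 fold changes from -8.08 (Cacnb4) to -4.01 (Cd200r1). Map1a, a microtubule-associated protein, read 67.0, 67.5 and 62.8 CPM in the cultures and 0.421, 1.97, 0.952 and 0.419 CPM in the spleens (log2 fold change -6.13, adjusted p of 1.96e-05). Nqo1, a quinone reductase under the control of NRF2, read 21.2, 16.6 and 21.5 CPM against 0.268, 0.394, 0.555 and 0.609 CPM (log2 fold change -5.42, adjusted p of 4.68e-06). Adgrl2, an adhesion receptor of the latrophilin family, fell from 34.5 to 49.6 CPM to 0.873 to 1.26 CPM, and Cacnb4, a calcium channel subunit, from 4.54 to 8.33 CPM to 0.0766 CPM in replicate 1 and 0 in the other 3 spleens. Chit1, chitotriosidase, read 57.0 to 67.9 CPM in the cultures and 2.03 to 6.15 CPM in the spleens (log2 fold change -4.05, adjusted p of 7.26e-05). Scd4 and Serpinb9d belong to families of close copies, so that reads of these genes may have been divided.

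The peritoneal cavity (PC) of the same recipients gives a second site outside culture. The 4 NFKBIE-ko PC libraries share the line and the transplantation with the spleens, and the comparison below shares the spleen libraries with the one above. Of 12628 genes tested, 816 (6.46%) were higher in the spleen than in the PC and 1976 (15.6%) lower. Sqle averaged 35.6 ± 1.47 CPM (SD, n = 4) in the PC, a spleen-minus-PC log2 difference of 0.43, and Cd74 averaged 2344 ± 207 CPM (SD, n = 4), a difference of -0.02 (adjusted p of 0.818), so that both were far below culture at either site. Of the cholesterol genes 1 of 24 was higher in the spleen than in the PC and 2 were lower, and of the class II genes 1 of 13 was higher and 4 lower. Tsc22d3 averaged 478 ± 46.6 CPM (SD, n = 4) in the PC, not distinguishable from the spleen (log2 difference -0.30, adjusted p of 0.163).

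Immediate-early genes differed between the sites, with 18 of 29 higher in the spleen than in the PC and 1 lower. Collection of the cells also differed between the sites, as given above, and its part was not tested. Jun averaged 56.8 ± 12.1 CPM (SD, n = 4) in the PC, a spleen-minus-PC log2 difference of 3.96 (adjusted p of 3.93e-06), and Cd69 averaged 51.8 ± 29.3 CPM (SD, n = 4), a difference of 2.47 (adjusted p of 0.000193). Growth genes did as well: 27 of 36 cell cycle genes were higher in the spleen than in the PC and 0 lower, and Top2a, topoisomerase II, averaged 339 ± 56.2 CPM (SD, n = 4) in the PC, 597 to 847 CPM in the spleens and 906 to 963 CPM in the cultures. Egln3 was higher in the PC (60.7 ± 9.66 CPM; SD, n = 4) than in either of the other groups, with a spleen-minus-PC log2 difference of -4.96 (adjusted p of 9.36e-07). Host transcripts were unlike. Red pulp macrophage genes were lower in the spleen than in the PC in 13 of 19 and monocyte genes in 16 of 18, whereas 17 of 18 erythroid and 8 of 13 neutrophil genes were higher in the spleen. Interferon-stimulated genes, most of which were read in culture too, were lower in the spleen than in the PC in 12 of 34. The summed level of the 115 host markers was 3150 to 4210 CPM in the PC, above the 282 to 647 CPM of the spleens.

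**Figure D5:**
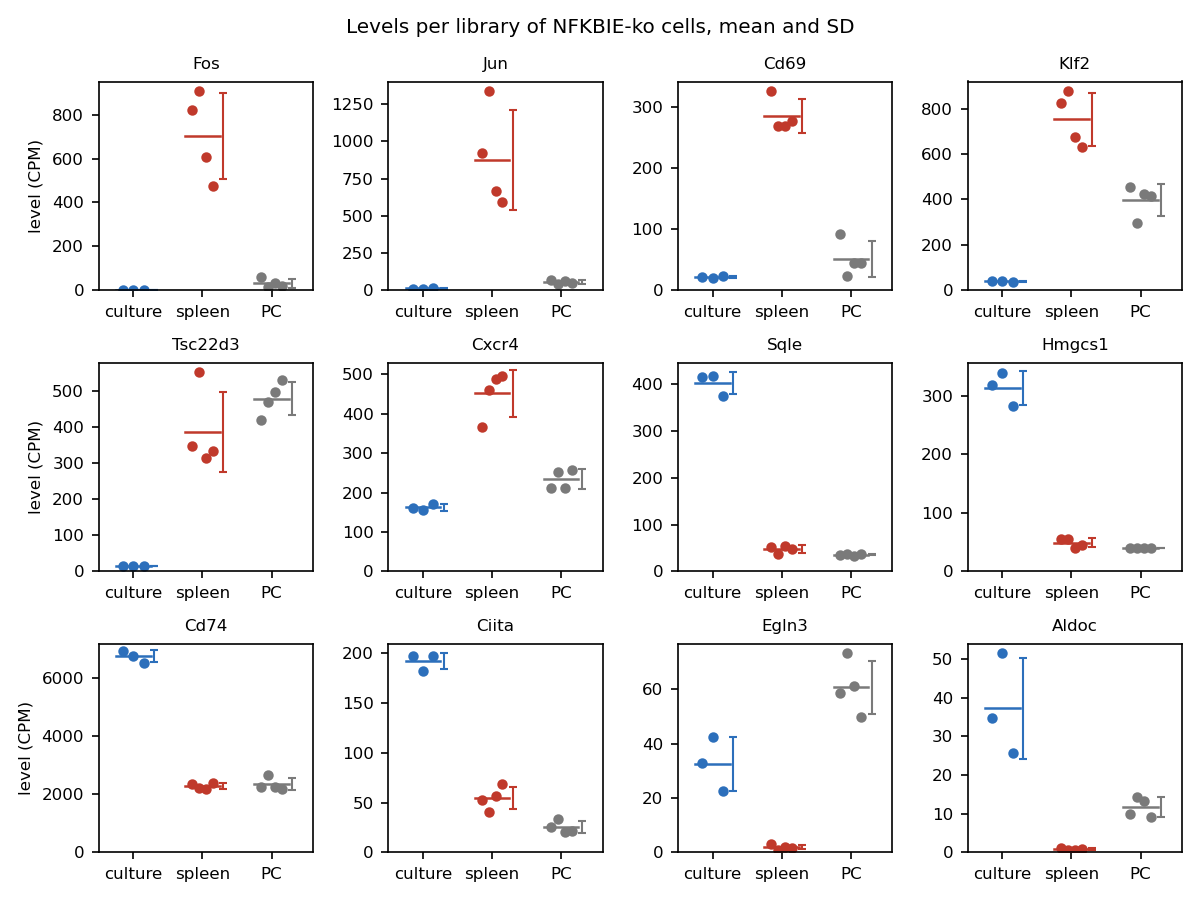
Level in CPM of 12 genes in each NFKBIE-ko library of culture (3, blue), spleen (4, red) and PC (4, grey), with the mean as a line and the SD as a bar. Fos, Jun and Cd69 are highest in the spleen, Klf2, Tsc22d3 and Cxcr4 are up at both sites in the mouse, Sqle, Hmgcs1, Cd74 and Ciita are down at both, and Egln3 and Aldoc are lowest in the spleen.

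Whether spleen minus culture differed between NFKBIE-ko and mock-edited NFKBIE-wt libraries was tested as an interaction over the 14 spleen and culture libraries, as labelled. Of 12885 genes 1 was called (0.00776%), Fyn, named for that reason, and 1367 had an unadjusted p below 0.05. No gene was called with the replicate number as a block, or without NFKBIE-ko spleen replicate 1, NFKBIE-ko spleen replicate 3, NFKBIE-wt spleen replicate 2 or any single NFKBIE-ko culture, and fits without 1 library called 0 to 41 genes (41 without replicate 2 of NFKBIE-wt in vitro). Fyn, a Src-family kinase of lymphocytes, read 7.62, 6.62, 8.45 and 6.20 CPM in the NFKBIE-ko spleens and 0.976, 1.23 and 1.12 CPM in the NFKBIE-ko cultures. Libraries labelled NFKBIE-wt read 4.86, 3.28, 2.69 and 2.48 CPM for the spleen and 6.19, 3.88 and 5.09 CPM in vitro. Between the genotypes both the spleens and the cultures thus differed, in opposite directions. The spleens were not purified, and the part of host cells in the level of Fyn was not tested. The spleen-minus-culture log2 difference was larger in NFKBIE-ko libraries by 3.30, with a standard error of 0.382 (adjusted p of 0.0139). Without both libraries that went against their labels it was 3.17 (adjusted p of 0.0173), and 7 of 13080 genes (0.0535%) were called. For Jun the same difference was 4.41 as labelled (adjusted p of 0.407) and 0.59 without these 2 libraries (adjusted p of 0.876), and for Sqle it was -2.01 (adjusted p of 0.638) and 0.41 (adjusted p of 0.528). A difference between the genotypes in these genes was not detectable, and the estimates as labelled rest on those 2 libraries.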

How the data were processed

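Libraries were prepared from total RNA with a TruSeq mRNA kit and sequenced as paired reads on an Illumina NovaSeq. Per the labels and the methods, the authors ran Salmon 1.8 with GRCm39. Their deposited table gives estimated counts (expected counts), not normalized, of 62492 transcripts, each above 0 in at least 5 samples. Of all values 69.5% were not whole, since Salmon divides shared reads. Strand settings are not given in the sources used here. From these, counts of the 62147 transcripts that matched GENCODE were summed to 17023 genes and rounded. The 345 others (0.619% of counts) were left out.

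Genes were filtered with filterByExpr, scaled by TMM and fitted with robust quasi-likelihood in edgeR 4.0.16 (R 4.3.3). DESeq2 1.42.0 was an alternative. Total matched counts of the 22 libraries lay between 23887541 and 26413257. On simulated counts of the same sizes and common dispersion (0.0312), 200 of 200 genes changed by 2 on the log2 scale were recovered among 12313 with 1 false call for spleen against culture, and 118 of 200 with 6 false calls among 12686 for the interaction (dispersion 0.107). Every simulated gene had this 1 dispersion in each group, and those changed had a mean of at least 5 CPM. Recovery and false calls for genes near the floor, or where spleens vary more than cultures, were therefore not tested. Same-numbered libraries of spleen and culture did not deviate together (correlation of deviations 0.0988, 0.0167 and 0.00554), nor did all those of spleen and PC (0.155, -0.0485, 0.151 and 0.189), so samples were treated as unpaired.

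The genes named were Nfkbie; 10 called higher at no more than 3 counts in any culture, by mean spleen level; 15 called higher at 5 CPM or more in every culture and 15 called lower at a mean of 5 CPM or more in culture, by fold change (protein-coding, groups not overlapping); and for each list the 3 members with the highest level and the called members with the largest rise and fall. Hmgcs1, Ciita, Fos and Fyn fell outside it. A few genes that the rule names are not reported here. The comparison, lists and rules were chosen with earlier results of these data known. Sex-linked genes, purified samples and NFKBIE-wt PC were not analysed here. Figures used matplotlib in Python.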

Additional observations from a re-analysis of the deposited data

Results flagged for a closer look

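In 21 of 196 values examined, genes named by the rule and summed host lists, 1 of the 4 spleens stood so far from the others that its gap to the nearest, divided by the group's range, exceeded Dixon's 95% critical value. Chance gives such a gap in about 1 in 20 groups. NFKBIE-ko spleen replicate 2 was the library in 11 of them, replicate 1 in 7, replicate 3 in 3 and replicate 4 in 0.

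Replicate 2 was higher than the other spleens for Tsc22d3 (gap over range 0.861), Dusp10 (0.833), Adgrl2 (0.979), Ccr9 (0.899), Cd79a (0.868), Cd22 (0.902) and Il2rg (0.923). It was lower for Pkm (0.838), Eno1 (0.847), Nfkb2 (0.884) and Ftl1 (0.891). Ccr9, a chemokine receptor, read 80.8 CPM in replicate 2 and 19.7, 25.9 and 21.2 CPM in the other spleens, with 41.1 to 49.9 CPM in culture, and Eno1, enolase 1, read 684 CPM in replicate 2 and 1190 to 1281 CPM in the others.

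Replicate 1 was the highest spleen for Cd69 (0.856), Cacnb4 (1), Thbs1 (0.886), Fn1 (0.832), Spib (0.854), Hspa1a (0.933) and the summed stromal markers (0.882; 18.2 CPM against 6.51 to 7.89 CPM). For Cacnb4 the other 3 spleens had no count. Replicate 3 was the highest for Gzmb (0.856), Gzma (0.958) and the summed markers of CD8+ cytotoxic and NK cells (0.934; 120 CPM against 48.7 to 53.4 CPM).

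The spleen-minus-culture difference of Fyn was larger in NFKBIE-ko than in NFKBIE-wt libraries by 3.30 on a log2 scale. Fyn was the 1 gene that passed the test of the difference itself (edgeR, adjusted p of 0.0139).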

How the results depend on the processing

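With the replicate number as a block, which left out the unmatched NFKBIE-ko spleen replicate 4, 879 genes were higher and 692 lower in the spleen, where the fit of the same libraries without the block gave 926 and 721. For the interaction the paired fit, without spleen replicate 4 of either genotype, called 0 genes, and for spleen against PC 2787. The numbers share no source in the labels. Among the named genes Trib3 lost and Sparc gained a call with the block; Batf3 had lost its call without spleen replicate 4 alone.

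Without the fold threshold 2511 genes were higher and 2279 lower. A test against a minimum of 2-fold (glmTreat) left 349 lower. For the interaction DESeq2's Wald test called 179 genes where edgeR called 1; without both libraries that went against their labels, an alternative chosen after seeing the data, edgeR called 7. Leaving out 1 library gave 915 to 1081 genes higher, 686 to 887 lower, 0 to 41 for the interaction (41 when NFKBIE-wt in vitro replicate 2 was left out, and 0 for NFKBIE-wt spleen replicate 2, NFKBIE-ko spleen replicate 1, NFKBIE-ko spleen replicate 3 or any NFKBIE-ko culture) and 2794 to 3056 for spleen against PC. The cause was not tested. The other alternatives (size factors, TMM from culture-expressed genes, filters, DESeq2, all 22 libraries, transcripts) kept the counts of spleen against culture within 1.5 times.

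Of 188 named genes 167 kept direction and side of the threshold in every alternative, and none of the 2813 values reversed; 39 lost and 9 gained a call. Depth limits the fold of genes without counts in culture to a bound. The erythroid count of 19 became 10 in the fit of all 22 libraries.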

Other observations

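Further groups were put together after the values were seen, so that their counts are descriptions. Of 10 tested genes of sterol efflux and LXR targets 5 were higher in the spleen than in culture and 0 lower (median log2 fold change 1.28), among them Mylip, a ubiquitin ligase (49.9, 81.7, 39.5 and 50.7 CPM in the spleens, 10.9, 10.3 and 10.5 CPM in the cultures). Of 11 glucocorticoid-induced genes 9 (81.8%) were higher and 0 lower (median log2 fold change 4.69, or 1.75 with bounds). Of these 11, 3 had no count in any culture and passed the filter through the spleens alone. The share cannot be weighed against the 8.79% of all genes, as the group was made after the values were seen. Sgk1, a kinase of this group, read 68.6, 26.5, 41.5 and 42.6 CPM in the spleens and 1.46 to 1.57 CPM in the cultures. Of 10 NRF2 targets 0 were higher and 4 lower (median -0.53).

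All 11 tested pancreatic acinar genes were higher in the spleen, 8 of them without a count in any culture. Amy2a5, pancreatic amylase, read 8.81, 0, 8.29 and 9.93 CPM in the spleens, with none in replicate 2, and a mean of 0.00992 CPM in the PC. The 14 listed genes with at most 3 counts in every culture, tested or not, summed to 17.4 to 21.7 CPM in the spleens. Of the 8 immunoglobulin heavy chain constant genes 3 were higher and 3 lower, and Ighm, the μ chain of the leukemic receptor, read 4965 to 5758 CPM in the spleens and 5313 to 5947 CPM in the cultures (log2 fold change -0.05; edgeR, adjusted p of 0.671).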
